A study of Mus musculus with 209 samples.

Results

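The genes described here are the numbered members of the mouse prolactin (Prl), pregnancy-specific glycoprotein (Psg) and carcinoembryonic antigen-related adhesion molecule (Ceacam) families. They were taken by symbol from the joined epiblast count tables, and 54 of 24446 gene symbols matched: 26 Prl, 13 Psg and 15 Ceacam genes. The families were picked because some of their members differ between the epiblast groups, so that contrast is described below without a test of the members. Prl itself, its receptor Prlr, and the unnumbered pseudogenes are not members.

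The libraries come from wild-type C57BL/6 x C57BL/6 epiblast labelled IVC (2 samples; a term the labels do not spell out) and from wild-type C57BL/6 x C57BL/6 epiblast at E6.5 (2 samples, labelled ND, also not spelled out). The other 50 libraries are single cells: 9 maternal KO and 8 WT 2-cell samples taken 42 to 43 h after hCG, and 19 KO and 14 WT MII oocytes taken 14 to 15 h after hCG, all from superovulated C57BL/6 females aged 6 to 8 weeks. The KO label is N14 maternal KO, read here as Nlrp14; how the allele was made is not given in the sources used here. Males were C57BL/6 or PWK per the protocol, and the labels do not say which sired each 2-cell sample.

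Prolactin-family proteins are secreted hormones. In rodents the family has expanded, and most of its members are made by the placenta and the decidua, first of all by trophoblast giant cells, the large cells that invade the uterine wall. The placental lactogens among them bind the prolactin receptor, which signals through Jak2 and Stat5, and sustain the corpus luteum and maternal metabolism in pregnancy. Psg proteins are secreted by trophoblast too, and Ceacam proteins are their mostly membrane-bound relatives in the immunoglobulin superfamily, with roles in adhesion. The epiblast itself is the layer that forms the body and does not give rise to trophoblast.

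Total counts were 10377163 and 10241401 in the IVC libraries, against 11826853 and 24047088 in the E6.5 libraries. Genes with a count numbered 8380 and 8990 in IVC, against 13101 and 13698 in E6.5, so IVC libraries held fewer detected genes at a similar or lower depth. Of the epiblast markers, which are taken up as a list below, Pou5f1, the pluripotency factor, was at 448 and 479 CPM (a gene's counts per 1000000 counts of its library) in IVC and at 456 and 534 CPM in E6.5. In oocytes and 2-cell samples the depth ran from 2704050 to 15007301 counts. Nlrp14 stood at 29.4 to 86.4 CPM in KO and 106 to 477 CPM in WT 2-cell samples, and at 0.643 to 73.2 CPM in KO and 225 to 3307 CPM in WT oocytes, without overlap at either stage. Nothing in the labels says whether replicates came from separate embryos, and in bulk samples fewer cells of a type and less RNA per cell cannot be told apart.

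Of the 54 members, 14 had a count in at least 1 epiblast library and 12 had 10 or more counts over the 4. IVC libraries held counts of 12 members and E6.5 libraries of 5, all 5 in replicate 2. Another 29 members had counts only in oocytes or 2-cell samples, and 11 had none in any of the 54 libraries: Prl2c2, Prl2c3, Prl2c4, Prl3c1, Prl7b1, Prl8a8, Prl8a9, Psg23, Psg27, Ceacam11 and Ceacam13. Counts of near-identical copies are uncertain, because the authors' counting may have dropped or split reads that fit several genes. RefSeq lists Prl2c4 as another name of Prl2c3, and the promoters of Prl2c3 and Prl2c5 are 95.3% identical.

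**Figure D1:**
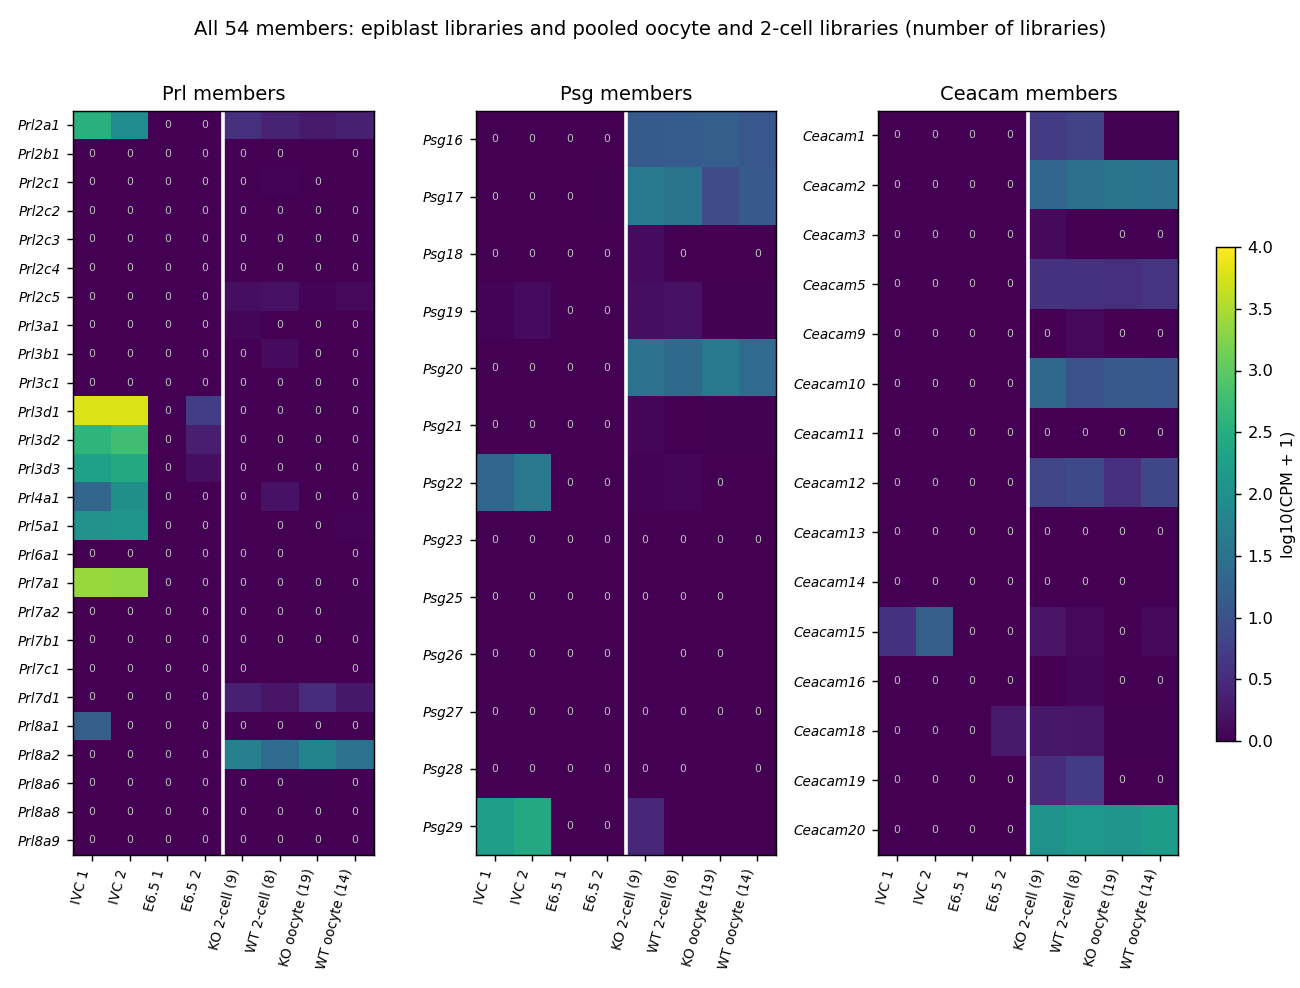
Each row is a member and each column an epiblast library or a pool of oocyte or 2-cell libraries; colour gives log10(CPM + 1) and a printed 0 marks no count. The members with the highest values in IVC and in the pools differ. Prl3d1 is at 6254 and 6259 CPM in IVC and at 0 in all pools. Ceacam20 is at 110.2 to 161 CPM in the pools and at 0 in epiblast. The pools hold a Prl signal too, with Prl8a2 at 24.3 to 62.2 CPM, and Prl2a1 and Psg29 have counts in IVC and in the pools.

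The Prl genes that IVC libraries contained lie in 1 cluster. RefSeq (GRCm38.p6, used here for names and order since the count tables use mm9) places 25 Prl members on chromosome 13 and all 28 Psg and Ceacam members on chromosome 7. Prl3d1, Prl3d2 and Prl3d3 stand next to each other in that order. Promoters of 44 members were matched in the RefSeq table, each 250 bases before to 50 after the gene's start. They are shown for the 3 Prl3d copies, for Prl7a1 and for Psg29, the genes that carried most of the counts in IVC. Capitals mark the GATA motif GATAA, on either strand, and the 12-base run TATATAGGAGGT.
Prl3d1 (chr13:27093939-27094238, plus strand): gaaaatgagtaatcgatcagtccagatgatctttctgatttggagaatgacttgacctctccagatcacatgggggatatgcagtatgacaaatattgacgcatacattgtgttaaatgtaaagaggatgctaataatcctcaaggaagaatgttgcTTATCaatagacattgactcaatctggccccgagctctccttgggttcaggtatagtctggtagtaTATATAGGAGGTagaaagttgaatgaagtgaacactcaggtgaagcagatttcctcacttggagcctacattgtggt
Prl3d2 (chr13:27121445-27121744, plus strand): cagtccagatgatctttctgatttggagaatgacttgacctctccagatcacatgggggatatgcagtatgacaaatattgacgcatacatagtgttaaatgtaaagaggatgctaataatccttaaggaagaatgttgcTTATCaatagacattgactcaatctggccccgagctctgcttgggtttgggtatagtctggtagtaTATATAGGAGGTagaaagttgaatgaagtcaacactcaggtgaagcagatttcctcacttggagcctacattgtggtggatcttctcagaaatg
Prl3d3 (chr13:27156544-27156843, plus strand): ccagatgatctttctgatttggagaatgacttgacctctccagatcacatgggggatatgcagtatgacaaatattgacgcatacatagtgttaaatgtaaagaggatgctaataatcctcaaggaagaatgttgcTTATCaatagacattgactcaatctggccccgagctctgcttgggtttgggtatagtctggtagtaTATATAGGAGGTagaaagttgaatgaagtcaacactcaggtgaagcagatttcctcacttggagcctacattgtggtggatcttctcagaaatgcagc
Prl7a1 (chr13:27642444-27642743, minus strand): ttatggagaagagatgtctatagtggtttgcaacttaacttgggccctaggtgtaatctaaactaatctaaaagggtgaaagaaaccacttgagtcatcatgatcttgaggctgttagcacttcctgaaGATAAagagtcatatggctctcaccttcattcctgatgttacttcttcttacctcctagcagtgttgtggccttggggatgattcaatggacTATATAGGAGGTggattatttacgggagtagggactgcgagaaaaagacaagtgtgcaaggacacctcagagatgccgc
Psg29 (chr7:17203227-17203526, plus strand): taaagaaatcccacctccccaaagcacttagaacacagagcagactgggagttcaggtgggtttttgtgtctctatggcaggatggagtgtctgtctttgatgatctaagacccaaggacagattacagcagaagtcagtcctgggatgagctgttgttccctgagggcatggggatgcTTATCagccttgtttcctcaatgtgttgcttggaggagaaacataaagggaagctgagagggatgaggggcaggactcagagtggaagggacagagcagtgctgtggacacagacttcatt

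Prl3d2 and Prl3d3 promoters were 97.0% identical in a global alignment, and Prl3d1 was 87.4% identical to Prl3d2 and 85.4% to Prl3d3, in part because the annotated starts are offset. Among all 210 pairs of Prl promoters the median identity was 54.8%. The run TATATAGGAGGT is the longest that the Prl3d1 and Prl7a1 promoters share, and both were chosen for their counts in IVC. It occurs on either strand in 7 of 27025 promoters, or 0.0259%, and all 7 belong to Prl members, on the gene's own strand with its first letter 27 to 48 bases before the annotated start. They are Prl3d1, Prl3d2, Prl3d3, Prl7a1 and Prl4a1, which had counts in IVC, and Prl2b1 and Prl7a2, which had none there. Thus 5 of the 8 Prl promoters of genes with counts in IVC held the run, and 2 of the 13 other Prl promoters. Prl3d1 and Prl7a1 hold it by definition, and Prl3d2 and Prl3d3 are near copies of Prl3d1. These shares were therefore largely set in advance and do not tie the run to counts in IVC. The canonical TATA box letters TATAAA were in none of those 8 and in 4 of the 13 others, against 14.2% of all promoters. These matches were on either strand and at any position. Starting 40 to 20 bases before the gene's start, the letters were in 0 of the 8, 2 of the 13 and 2.75% of all promoters. The letters GATAA, on either strand, were in 5 of the 8 and 8 of the 13, against 25.8% of all promoters. The AP-1 letters TGANTCA, on either strand, were in 4 of the 8 and 5 of the 13, against 7.93% of all promoters. The TEAD letters GGAATG were in 4 of the 8 and 4 of the 13, against 14.6% of all promoters, and the AP-2 letters GCCNNNGGC in 0 of the 8 and 1 of the 13, against 4461 of all 27025 promoters, each on either strand. The genes are related by descent, so these matches are a description of shared letters and not of binding.

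A placental lactogen came first among the Prl counts. Prl3d1, placental lactogen I alpha and an early product of trophoblast giant cells, was at 6254 and 6259 CPM in IVC, against 0 and 4.62 CPM in E6.5. Prl3d2, its beta form, was at 409 and 583 CPM in IVC, against 0 and 1.16 CPM in E6.5. Prl3d3, the gamma form, was at 196 and 263 CPM in IVC, against 0 and 0.416 CPM in E6.5. Both IVC libraries lay far above both E6.5 libraries for each of the 3 genes. The IVC replicates were close for Prl3d1, and replicate 2 was the higher for Prl3d2 and Prl3d3. The ratio of mean CPM, IVC over E6.5, was 2711 for Prl3d1 (log2 11.40), 852 for Prl3d2 (log2 9.73) and 1103 for Prl3d3 (log2 10.11). These ratios rest on 1 E6.5 library, since E6.5 replicate 1 held no count of any member; a count of 0 there allows up to 0.254 CPM.

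The copies did not share their reads in the same proportion everywhere. Prl3d1 took 91.2% and 88.1% of the counts of the 3 copies in the IVC libraries, against 74.5% (66.7 to 81.3%, exact Clopper-Pearson 95% interval, n = 149 counts) in E6.5 replicate 2. Prl3d2 took 5.96% and 8.21% in IVC, against 18.8% (12.9 to 26.0%) in E6.5 replicate 2. Within IVC the 2 libraries differed by more than counting error as well, with Prl3d1 at 91.0 to 91.4% in replicate 1 and 87.9 to 88.3% in replicate 2. Such intervals cover counting error only, and no molecular identifiers were used. How reads that fit more than 1 copy were assigned is not given in the sources used here.

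The non-lactogen Prl genes were led by Prl7a1, which lay above Prl3d2 and Prl3d3 in both IVC libraries. Prl7a1, prolactin-like protein E, was at 2438 and 2222 CPM in IVC, against 0 and 0 CPM in E6.5. With 3 counts over both E6.5 libraries as the floor (0.0836 CPM), it was at least 27862-fold higher in IVC. Prl2a1, prolactin-like protein M, was at 346 and 83.6 CPM in IVC, against 0 and 0 CPM in E6.5, at least 2569-fold higher. The IVC replicates were thus close for Prl7a1 and well apart for Prl2a1.

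Prl5a1, prolactin-like protein L, was at 106 and 126 CPM in IVC, against 0 and 0 CPM in E6.5, at least 1389.8-fold higher. Prl4a1, prolactin-like protein A, known to act on uterine natural killer cells, was at 19.8 and 97.2 CPM in IVC, against 0 and 0 CPM in E6.5, at least 699-fold higher. Prl8a1 was at 15.5 and 0 CPM in IVC, against 0 and 0 CPM in E6.5, so its 161 counts came from 1 IVC library. All 3 were absent from E6.5, and the IVC replicates were close for Prl5a1 and apart for the other 2. The remaining 18 Prl members were at 0 in the 4 epiblast libraries. They include Prl3b1, placental lactogen II, which succeeds lactogen I later in pregnancy, the proliferins Prl2c2 to Prl2c5, growth factors of giant cells, and the antiangiogenic proliferin-related protein Prl7d1.

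**Figure D2:**
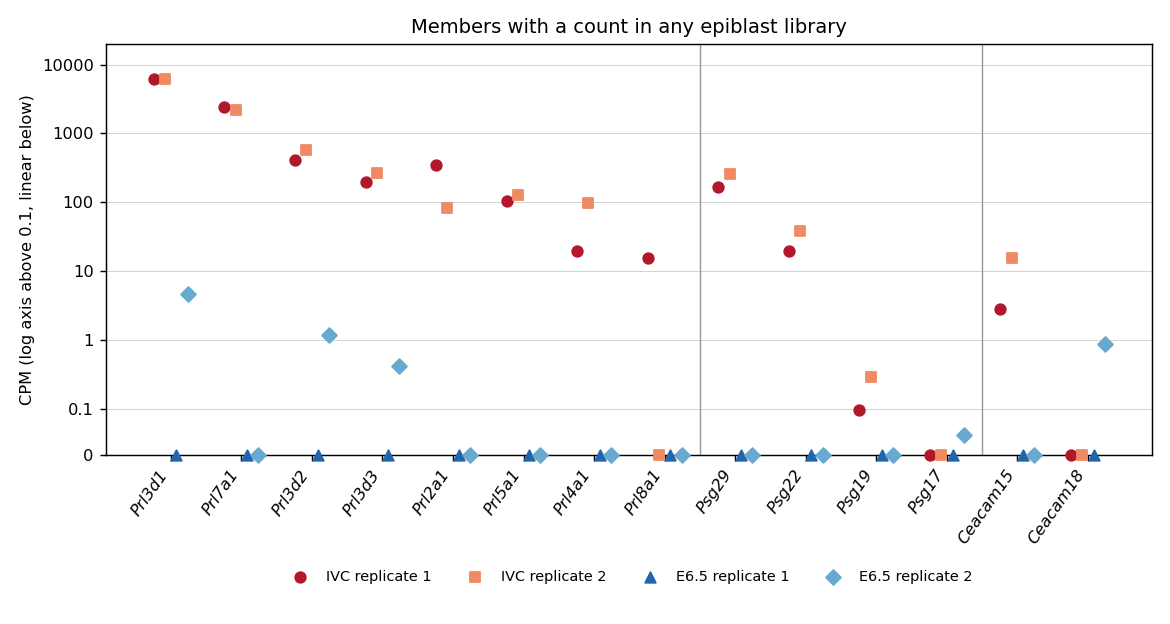
Points are CPM of the 14 members with a count in any epiblast library, by library (axis logarithmic above 0.1 and linear below), IVC left of E6.5 for each gene. IVC points lie above E6.5 points for most genes, with the highest at 6259 CPM (Prl3d1, IVC replicate 2) and 1 IVC point of Prl8a1 at 0, while Psg17 and Ceacam18 have counts only in E6.5 replicate 2.

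Few Psg genes were read in epiblast. Psg29 was at 166 and 256 CPM in IVC, against 0 and 0 CPM in E6.5, at least 2527-fold higher. Psg22 was at 19.3 and 38.9 CPM in IVC, against 0 and 0 CPM in E6.5, at least 348-fold higher. In both genes IVC replicate 2 was the higher. Psg19 had 1 and 3 counts in IVC and none in E6.5, and Psg17 had 1 count, in E6.5 replicate 2. Of the Ceacam members, Ceacam15 was at 2.79 and 15.3 CPM in IVC, against 0 and 0 CPM in E6.5, at least 108-fold higher. Ceacam18 was at 0 and 0 CPM in IVC, against 0 and 0.873 CPM in E6.5, at least 3.00-fold lower against the IVC floor of 0.145 CPM. Its 21 counts all came from E6.5 replicate 2. Ceacam1, the adhesion receptor for which the family is best known, had no count in epiblast.

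Summed over members, the Prl family averaged 9709 ± 107 CPM in IVC and 3.10 ± 4.38 CPM in E6.5 (SD, n = 2 each). It took 0.978% and 0.963% of all counts in the IVC libraries, and Prl3d1 alone made up 63.9% and 65.0% of the family's counts. Prl7a1 made up another 24.9% and 23.1%. The log2 ratio of the Prl means, IVC over E6.5, was 11.61, and at least 15.22 without E6.5 replicate 2, where 3 counts stand for the count of 0 in replicate 1. Psg genes averaged 241 ± 77.6 CPM in IVC and 0.0208 ± 0.0294 CPM in E6.5 (SD, n = 2 each). Their counts, 4953 in IVC against 1 in E6.5, give a pooled log2 ratio of 13.07 with a counting interval of 10.59 to 18.38. Ceacam genes averaged 9.06 ± 8.86 CPM in IVC and 0.437 ± 0.618 CPM in E6.5 (SD, n = 2 each), so the spread between replicates was as large as the means. Without Ceacam15 the sum falls to the Ceacam18 counts of E6.5 alone, at a log2 ratio of -1.59.

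For orientation among all genes, edgeR's quasi-likelihood test called 4106 of 11565 genes (35.5%) at a Benjamini-Hochberg adjusted p under 0.05, of which 1389 were higher and 2717 lower in IVC. Its filter on low counts let 10 of the 54 members pass, and calls among them are not given, since the families were picked on this contrast. Of 12 members with 10 or more counts, 11 were 2-fold or more higher in IVC and 1 lower, where 22.9% and 55.9% of 13744 genes were. Counts in both IVC libraries and none in E6.5 were found for 7 members and for 0.553% of those genes. Most of the 12 members reached 10 counts only through the group where they were higher. The families were also picked on this contrast, so both comparisons describe that choice and are no evidence of enrichment. The median log2 ratio of all 13744 genes was -1.45 with library totals, -1.18 with TMM scaling and -1.34 with DESeq2 size factors, so values of single genes are read against a shift below 0.

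The genes through which lactogens act were read next, from lists put together with earlier results known. Of 13 genes of lactogen receptor signalling, 9 passed the filter, 1 was called higher and 3 lower, with a median log2 ratio of -1.83 (a group without counts set to 3 counts) against -1.13 over all tested genes. Prlr, the receptor, was at 20.1 and 29.0 CPM in IVC, against 3.64 and 8.90 CPM in E6.5, with a log2 fold change of 2.26 ± 0.98 (SE) and an edgeR adjusted p of 0.167. The IVC libraries were the higher 2 of the 4 without passing the test. Socs2, an inhibitor that growth hormone and prolactin signals induce, rose in IVC, to 161 and 233 CPM, against 66.9 and 81.4 CPM in E6.5 (log2 fold change 1.68 ± 0.31, edgeR adjusted p = 0.0398).

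The kinase and other feedback genes went the other way. Jak2, the kinase bound to the receptor, had no count in IVC, against 7.53 and 3.91 CPM in E6.5 (edgeR adjusted p = 0.0398). Cish, a Stat5 target, had no count in IVC, against 4.82 and 6.94 CPM in E6.5, and Socs1 had none in IVC, against 3.30 and 4.82 CPM in E6.5 (edgeR adjusted p = 0.0398 each). Both IVC libraries were at 0 for all 3 genes. The calls of Socs2, Jak2, Cish and Socs1 were all lost without the filter, with a block for replicate number and without either E6.5 library. Stat5b had no count in IVC, against 1.35 and 10.5 CPM in E6.5 (edgeR adjusted p = 0.0697), and Stat5a stayed under 1 CPM in each library. Ghr, the growth hormone receptor, was at 2.70 and 45.2 CPM in IVC, against 1.94 and 4.49 CPM in E6.5 (edgeR adjusted p = 0.252), with 1 IVC library inside the E6.5 range. Socs3 and Igf2 did not pass the test either, and Prl, Gh and Igf1 had no count.

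Among 12 binding partners of Psg and Ceacam proteins, 9 passed the filter, 2 were called higher and 3 lower, with a median log2 ratio of -1.49. Cd9, the tetraspanin that binds Psg17, rose in IVC, to 471 and 415 CPM, against 23.4 and 13.9 CPM in E6.5 (log2 fold change 4.83 ± 0.41, edgeR adjusted p = 0.00945). Sdc4, a heparan sulfate proteoglycan, rose to 632 and 497 CPM in IVC, against 37.7 and 28.0 CPM in E6.5 (4.37 ± 0.32, edgeR adjusted p = 0.00697). For both genes the groups lay far apart. Ptpn11, a phosphatase that Ceacam1 recruits, fell to 58.7 and 36.2 CPM in IVC, against 186 and 191 CPM in E6.5 (-1.72 ± 0.38, edgeR adjusted p = 0.0400). The other called genes, Tgfb1 and Ptpn6, had no count in IVC, and Cd81, Tgfbr1 and Sdc1 did not pass. Cd9 and Sdc4 kept their calls under each alternative. The 3 lower calls were lost without either E6.5 library, without the filter and with a replicate block. That of Tgfb1 was also lost without either IVC library.

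Lists of other cell types give the setting of the Prl signal. Of 30 further giant cell and spongiotrophoblast genes, 10 passed the filter, 3 were called higher and 2 lower, and the list had a median log2 ratio of 2.52. Its summed level was 509 and 607 CPM in IVC, against 229 and 260.1 CPM in E6.5. Cts7, a placental cathepsin, rose to 103 and 102 CPM in IVC, against 0 and 0.291 CPM in E6.5 (log2 fold change 9.5 ± 1.56, edgeR adjusted p = 0.0359). Phlda2, an imprinted gene that limits placental growth, rose to 229 and 159 CPM in IVC, against 13.3 and 3.62 CPM in E6.5 (4.78 ± 0.88, edgeR adjusted p = 0.0398). Tfpi, a coagulation inhibitor, rose too, and Peg3 and Flt1 fell. Plac1, a placental membrane protein, was at 55.1 and 169 CPM in IVC, against 0 and 1.70 CPM in E6.5, without passing (edgeR adjusted p = 0.0741). Cts7 and Phlda2 kept their calls under each alternative. Those of Tfpi, Peg3 and Flt1 were lost without either E6.5 library and with a replicate block. The Tfpi call was also lost without the filter.

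Other genes of the list were read in 1 IVC library or not at all. In IVC replicate 2, Serpinb9e had 348 counts, Cts8 had 273, Rhox6 had 155 and Serpinb9d had 150, and all 4 were at 0 in IVC replicate 1. In E6.5 they had no count but 2 of Rhox6. Hand1, the transcription factor of giant cells, singled out after its values were seen, had no count in IVC, against 0.592 and 1.25 CPM in E6.5. The spongiotrophoblast gene Tpbpa and 10 other genes of the list had no count in any epiblast library. Of 17 trophoblast transcription factors and keratins, 12 passed the filter, 3 were called higher and 2 lower, with a median log2 ratio of -0.96 and a summed level of 917 and 873 CPM in IVC, against 345 and 369.6 CPM in E6.5. The 3 keratins gave 829.9 and 783 CPM of this in IVC, against 129 and 151 CPM in E6.5. The 14 transcription factors alone summed to 87.4 and 90.0 CPM in IVC, against 216 and 219 CPM in E6.5. Most of that E6.5 sum was Eomes, at 62.0 and 0.293 CPM in IVC, against 171 and 155 CPM in E6.5. The lower sum in IVC therefore rests largely on Eomes, and the other factors were not summed apart from it. Krt8, an epithelial keratin, rose to 575 and 548 CPM in IVC, against 67.6 and 53.5 CPM in E6.5 (3.48 ± 0.24, edgeR adjusted p = 0.00653). Gata3, a trophoblast factor, rose to 16.1 and 37.6 CPM in IVC, against 0.338 and 1.16 CPM in E6.5 (5.42 ± 1.33, edgeR adjusted p = 0.0469). Krt18 rose as well, Ascl2 and Esrrb fell to 0 in IVC, and Eomes, Ets2 and Tfap2c did not pass. Krt8 kept its call under each alternative, and the calls of Gata3, Krt18, Ascl2 and Esrrb were lost without either E6.5 library. Those of Gata3, Ascl2 and Esrrb were also lost without the filter and with a replicate block. The Esrrb call was lost without either IVC library as well.

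Extraembryonic endoderm, which also surrounds the epiblast, was split. Of its 22 genes, all of which passed the filter, 6 were called higher and 3 lower, with a median log2 ratio of 0.55 and a summed level of 1630.3 and 2076 CPM in IVC, against 2802 and 1979.6 CPM in E6.5. The 6 higher were the secreted carriers Ttr, Afp, Apoa1, Apoa2, Apoe and Rbp4, and the 3 lower the basement membrane genes Lama1, Lamb1 and Col4a1. Ttr, for one, rose to 229 and 201 CPM in IVC, against 7.61 and 2.99 CPM in E6.5 (5.60 ± 0.69, edgeR adjusted p = 0.0202). Lama1 fell to 49.1 and 71.4 CPM in IVC, against 685 and 473 CPM in E6.5 (-3.00 ± 0.36, edgeR adjusted p = 0.0188). As each library was left out, 2 to 10 genes of this list were called higher and 1 to 9 lower. The calls of Afp, Apoa1 and Apoa2 were lost without the filter and with a replicate block, where 3 higher and 3 lower calls stayed each time. None of these lists' part in the Prl counts was tested.

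Most genes of maternal tissue were low or absent in both groups. Of 16 genes of decidua and uterine natural killer cells, 4 passed the filter, 0 were called higher and 1, Des, lower, with a median log2 ratio of -1.75. Their summed level was 44.8 and 65.0 CPM in IVC, against 39.6 and 26.6 CPM in E6.5. Cyp26a1 gave 29.1 and 64.9 CPM of it in IVC, against 15.4 and 13.4 CPM in E6.5, where Bmp2 gave 19.4 and 3.45 CPM. Pgr was at 15.0 and 0 CPM in IVC, against 0.846 and 5.61 CPM in E6.5, without passing the test. The natural killer genes Prf1, Gzma, Gzmb, Gzmc, Gzmd and Klrb1c were at 0 in all 4 libraries. The 12 blood and vessel genes summed to 0.289 and 1.95 CPM in IVC, against 2.28 and 2.58 CPM in E6.5. Only Cdh5 of these passed the filter, with a log2 ratio of -0.18 and no call, and all globin genes of the list were at 0. Of 16 epiblast genes, which all passed, 1 was called higher (Tdgf1) and 2 lower (Dnmt3b and Cdh1), with a median log2 ratio of -0.87. Dnmt3b, the de novo methyltransferase, fell to 479 and 396 CPM in IVC, against 3508 and 4110.4 CPM in E6.5 (-2.84 ± 0.16, edgeR adjusted p = 0.00480). Utf1 was at 1.64 and 41.5 CPM in IVC, against 154 and 176 CPM in E6.5, and T, a primitive streak factor, at 0 and 1.37 CPM in IVC, against 30.5 and 20.0 CPM in E6.5, neither passing the test. The calls of Tdgf1 and Des were lost without either E6.5 library and without the filter, and that of Des with a replicate block too.

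**Figure D3:**
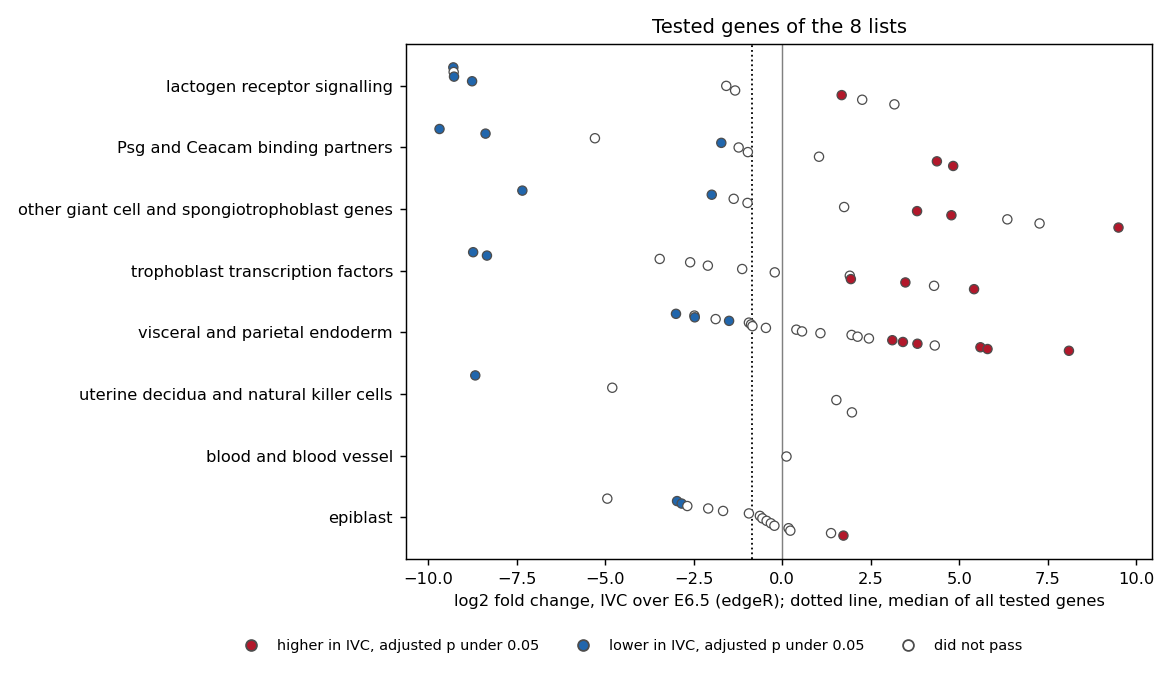
Each point is a tested gene of a list, placed by its log2 fold change, IVC over E6.5, and filled where its edgeR adjusted p is under 0.05. Filled points stand on both sides in most lists, and the dotted line at -0.85 is the median of all tested genes; values near -9 are fitted to 0 counts in IVC and depend on the prior count.

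Oocytes and 2-cell samples held a partly different set of members, and 9 members had counts both there and in epiblast. Prl3d1, Prl3d2, Prl3d3, Prl7a1 and Prl8a1 had no count in any of the 50 libraries, which allows up to 0.00831 CPM over all of them. The 8 members with the highest pooled levels were Ceacam20, Prl8a2, Psg20, Psg17, Ceacam2, Ceacam10, Psg16 and Ceacam12, and only Psg17 had a count in epiblast, a single one. No animal is named for the single cells, so each group counts as 1 sample, its counts are pooled and no test is given. In oocytes, 7 of 19 KO and 10 of 14 WT libraries held spike-in RNA above 0.01% of counts, as all 2-cell libraries did. Ratios within the spike-in libraries are therefore given beside the pooled ones.

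Ceacam20, a membrane protein known from intestinal microvilli, was at 43.3, 75.6 and 188 CPM (lowest, median and highest library) in KO 2-cell samples and 69.7, 125 and 258 CPM in WT 2-cell samples. In oocytes it was at 68.4, 108 and 198 CPM in KO and 86.4, 179.7 and 236 CPM in WT. It was read in each of the 50 libraries, and the groups overlapped. Its pooled log2 ratio of KO over WT oocytes was -0.42 (-0.45 to -0.39), and -0.31 within spike-in libraries.

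Prl8a2, the decidual prolactin-related protein and the main Prl member here, was at 3.03, 56.6 and 79.8 CPM in KO 2-cell samples and 2.08, 27.1 and 46.6 CPM in WT 2-cell samples. In oocytes it was at 3.82, 33.0 and 244 CPM in KO and 0, 21.9 and 88.0 CPM in WT. The groups overlapped at both stages. Its pooled log2 ratio of KO over WT was 1.16 (1.06 to 1.27) in 2-cell samples and 0.97 (0.92 to 1.03) in oocytes. Within spike-in oocytes the ratio was 0.82 (0.70 to 0.94), and within the others 0.59 (0.53 to 0.66). The highest oocytes all had little spike-in RNA: Prl8a2 pooled to 86.1 CPM in those 12 KO libraries and 57.2 CPM in those 4 WT libraries, against 25.3 CPM in the 7 KO and 14.4 CPM in the 10 WT spike-in libraries.

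Psg17, whose protein binds Cd9, was pooled at a higher level in 2-cell samples than in oocytes. It was at 5.18, 24.7 and 72.9 CPM in KO 2-cell samples and 0, 6.95 and 18.1 CPM in KO oocytes, a pooled log2 ratio of 2.51 (2.41 to 2.62), and 2.47 within spike-in libraries. WT 2-cell samples were at 3.86, 14.5 and 73.3 CPM and WT oocytes at 0.283, 12.7 and 23.2 CPM, a ratio of 1.46 (1.35 to 1.57), and 1.06 within spike-in libraries. Ranges overlapped between the stages in both genotypes, and the WT medians were close. Psg20 was at 8.51, 23.0 and 43.2 CPM in KO 2-cell samples and 0, 10.6 and 44.1 CPM in WT 2-cell samples. In oocytes it was at 5.92, 35.7 and 107 CPM in KO and 3.28, 16.1 and 61.6 CPM in WT. The pooled ratio of KO over WT oocytes was 0.77 (0.71 to 0.84), with 0.67 (0.59 to 0.75) within libraries with little spike-in RNA and -0.22 (-0.36 to -0.08) within spike-in libraries, so the direction differed between the library sets.

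Psg16 was at 4.96, 13.7 and 18.8 CPM in KO and 4.46, 11.49 and 23.2 CPM in WT 2-cell samples, and at 6.496, 13.2 and 27.5 CPM in KO and 0, 11.2 and 22.5 CPM in WT oocytes. Its 4 groups overlapped. The pooled log2 ratio of KO over WT oocytes was 0.45 (0.35 to 0.55). It was 0.94 (0.79 to 1.08) within spike-in libraries and -0.02 (-0.17 to 0.12) within those with little spike-in RNA, so the difference lay in the spike-in set. Ceacam10, a soluble member, was at 17.5, 18.8 and 24.2 CPM in KO 2-cell samples and 2.31, 6.69 and 18.1 CPM in WT 2-cell samples. All but 1 of the WT samples lay below all KO samples, and the pooled log2 ratio was 1.16 (1.00 to 1.33). In oocytes the Ceacam10 ratio of KO over WT was 0.06 (-0.04 to 0.17), and 0.41 within spike-in libraries.

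Ceacam2 was at 5.18, 19.3 and 32.9 CPM in KO 2-cell samples, 3.88, 13.4 and 58.9 CPM in WT 2-cell samples, 0, 32.2 and 66.7 CPM in KO oocytes and 2.80, 26.8 and 64.6 CPM in WT oocytes. Ceacam12 was at 1.11, 5.56 and 9.84 CPM in KO 2-cell samples, 1.06, 7.12 and 11.45 CPM in WT 2-cell samples, 0, 1.40 and 6.90 CPM in KO oocytes and 0.943, 6.99 and 12.04 CPM in WT oocytes. Both overlapped throughout. For Ceacam12 the KO over WT oocyte ratio was -1.28 (-1.47 to -1.09), and -1.08 within spike-in libraries.

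Among members at 10 CPM or more in either pool, 2 of 7 were 2-fold or more higher in KO than in WT 2-cell samples (Ceacam10 and Prl8a2, where 5.96% of 8416 genes were) and 0 lower (31.6% of genes). Between KO and WT oocytes 0 of 7 were higher and 0 lower, where 2.04% and 2.39% of 6325 genes were. Between 2-cell samples and oocytes, Psg17 was the 1 of 7 higher in KO (23.6% of 7179 genes) and in WT (41.1% of 8532 genes), and 0 were lower (17.4% of genes in KO and 14.3% in WT).

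**Figure D4:**
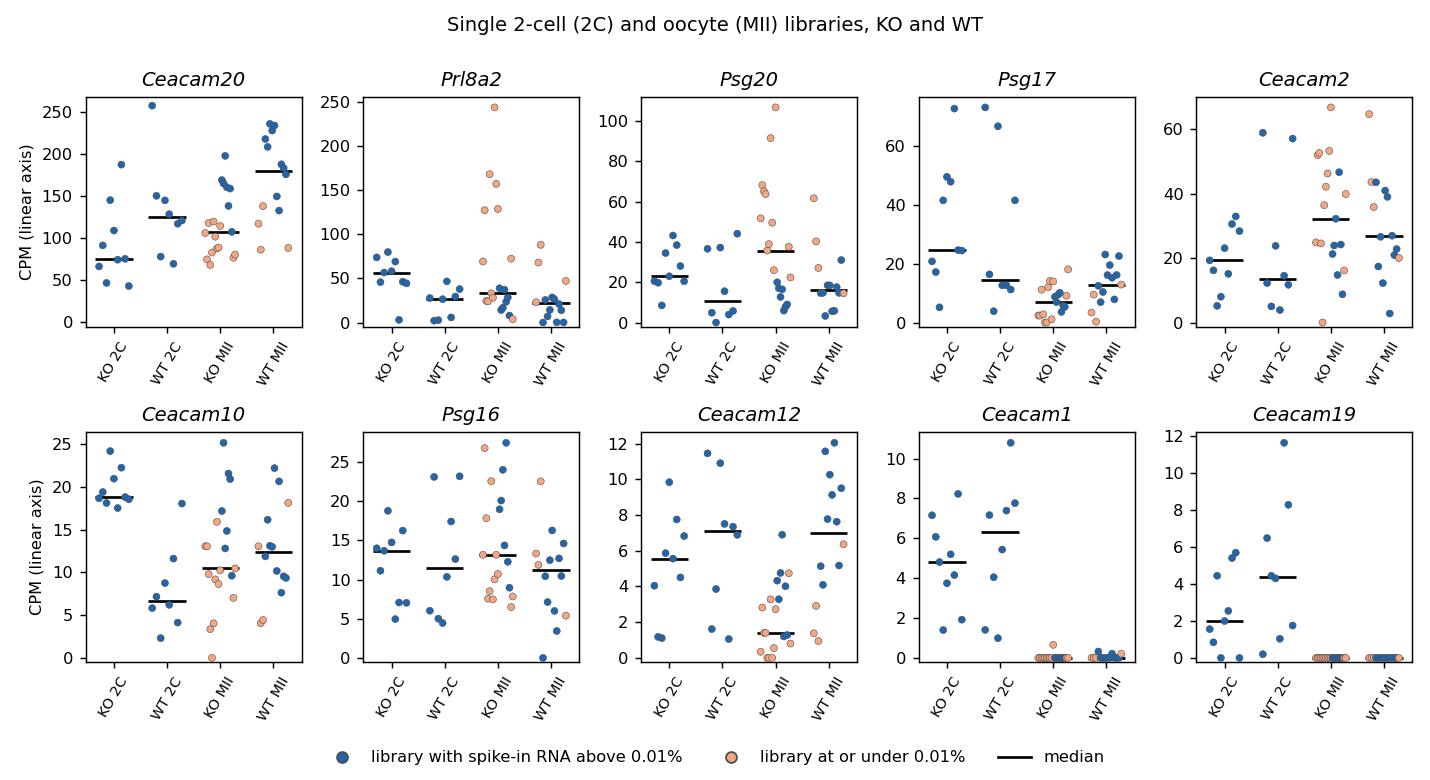
Points are CPM of single libraries for the 8 highest members and for Ceacam1 and Ceacam19, with bars at the group medians and colour by spike-in RNA. Ceacam10 stands at 17.5 CPM or more in KO 2-cell samples, and the Ceacam1 and Ceacam19 points of oocytes lie at or near 0, up to 0.658 CPM.

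A few members at lower levels, singled out after their values were seen, differed by stage or genotype. Ceacam1, the neighbour of Ceacam2 on chromosome 7, was at 1.40, 4.81 and 8.23 CPM in KO 2-cell samples and 0.991, 6.30 and 10.8 CPM in WT 2-cell samples. It had counts in 1 of 19 KO and 3 of 14 WT oocytes, with a highest value of 0.658 CPM. Every 2-cell sample was above every oocyte. Ceacam19 was at 0, 1.99 and 5.68 CPM in KO and 0.201, 4.36 and 11.6 CPM in WT 2-cell samples, and at 0 in all 33 oocytes. Against 3 counts over the oocyte group, it was at least 108-fold higher in KO and at least 152-fold higher in WT 2-cell samples, and at least 42.3-fold and 90.9-fold within spike-in libraries. Psg29, which IVC epiblast also held, had 112 counts in 6 of 9 KO 2-cell samples (0, 0.786 and 7.77 CPM) and 1 count in 8 WT 2-cell samples, a pooled log2 ratio of 6.27 (3.76 to 11.58). In oocytes it had 1 count in KO and 1 in WT.

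The other 27 members with counts stayed at or under 3.21 CPM in each pool, the value of Ceacam5 in WT oocytes. They are Prl2a1, Prl2b1, Prl2c1, Prl2c5, Prl3a1, Prl3b1, Prl4a1, Prl5a1, Prl6a1, Prl7a2, Prl7c1, Prl7d1, Prl8a6, Psg18, Psg19, Psg21, Psg22, Psg25, Psg26, Psg28, Ceacam3, Ceacam5, Ceacam9, Ceacam14, Ceacam15, Ceacam16 and Ceacam18. Of the Prl genes found in IVC, Prl2a1 was read most widely, in 35 of the 50 libraries with 508 counts.

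Summed by family, Prl members pooled to 58.9 CPM in KO and 28.0 CPM in WT 2-cell samples, and to 65.6 CPM in KO and 34.1 CPM in WT oocytes. Psg members pooled to 85.4 CPM in KO and 70.7 CPM in WT 2-cell samples, and to 63.3 CPM in KO and 47.4 CPM in WT oocytes. Ceacam members pooled to 167 CPM in KO and 192 CPM in WT 2-cell samples, and to 172 CPM in KO and 215 CPM in WT oocytes. The log2 ratio of KO over WT oocytes was 0.94 for Prl, 0.42 for Psg and -0.32 for Ceacam members, and 0.70, -0.07 and -0.25 within spike-in libraries. Within the libraries with little spike-in RNA the ratio was 0.60 for Prl, 0.47 for Psg and -0.15 for Ceacam members. The difference in the Psg sum was thus present in that set and not in the spike-in set, where members went opposite ways. There Psg16 was at 0.94 (0.79 to 1.08), Psg17 at -1.14 (-1.30 to -0.97) and Psg20 at -0.22 (-0.36 to -0.08).

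The allele tables give the parent of origin in 2-cell samples, where 39.5% of KO and 37.0% of WT counts were assigned. Over all genes 2.79% of the assigned counts were paternal in KO and 14.6% in WT. Paternal counts were nearly missing for 5 of the members that oocytes held at high levels. Ceacam20 had 3 paternal against 4668 maternal counts in KO (0.0642%) and 1 against 4306 in WT (0.0232%). Psg17, though more abundant at the 2-cell stage, had 0 paternal against 1745 maternal counts in KO, which allows up to 0.211% (exact 95% bound), and 0 against 1013 in WT, up to 0.363%.

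Psg20 had 0 paternal against 1243 maternal counts in KO and 0 against 629 in WT, and Ceacam2 had 0 against 498 in KO and 0 against 482 in WT. Prl8a2 had 1 against 657 in KO and 0 against 187 in WT. Counts of these 5 genes, Ceacam20 and Psg17 included, were maternal almost without exception in both genotypes. Psg16 and Ceacam10 differed from them. Psg16 was 7.46% paternal (5.38 to 10.0%) in KO and 15.9% (12.2 to 20.2%) in WT. Ceacam10 was 2.63% paternal (1.57 to 4.13%) in KO and 11% (7.11 to 16.1%) in WT. The intervals of Ceacam10 in both genotypes and of Psg16 in WT held the share over all genes, and that of Psg16 in KO lay above it. Ceacam12 had 5 paternal against 267 maternal counts in KO, or 1.84% (0.599 to 4.24%), with the paternal counts in 1 library. In WT it had 0 against 202, up to 1.81%. Its KO interval held the share over all genes, and its WT interval lay below it.

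Ceacam19, which had no count in oocytes, had 41 paternal and 0 maternal counts in KO, and 35 paternal and 45 maternal counts in WT, where the paternal share was 43.8% (32.7 to 55.3%). The KO counts came from 6 libraries and the WT paternal counts from 4. Ceacam1 had 1 paternal and 52 maternal counts in KO, a share of 1.89% (0.0478 to 10.1%), and 6 paternal and 62 maternal counts in WT, a share of 8.82% (3.31 to 18.2%). Both intervals held the share over all genes. In KO 2-cell samples Psg29 had 13 paternal and 73 maternal counts, a paternal share of 15.1% (8.30 to 24.5%). In 4 of 255 member values above 0 the allele counts exceeded the total count, so small shares carry that error too.

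**Figure D5:**
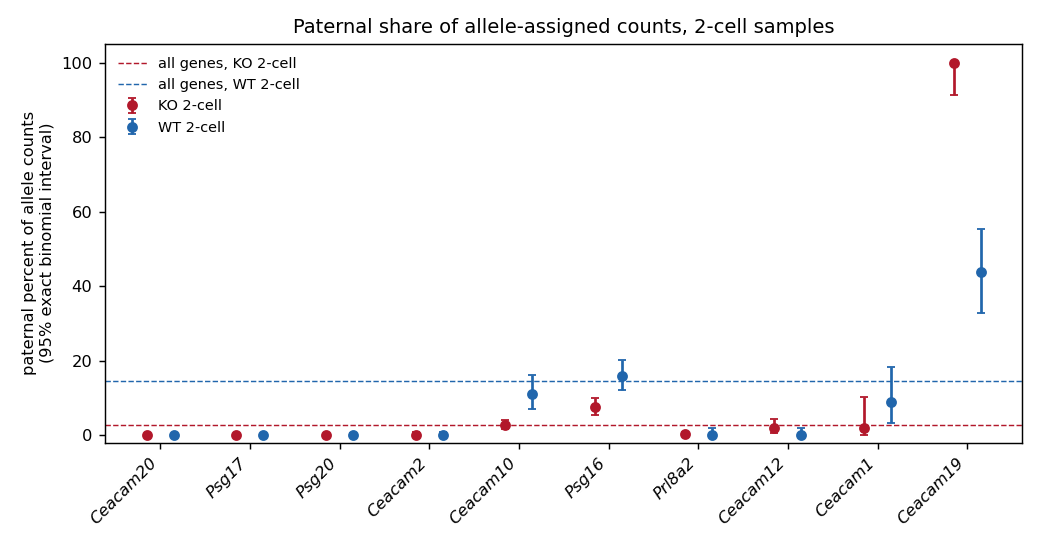
Points are the paternal percent of allele-assigned counts with exact 95% binomial intervals for the 10 members with 40 or more such counts in both genotypes, KO left of WT; dashed lines give all genes, at 2.79% (KO) and 14.6% (WT). Ceacam19 stands at 100.0% in KO and 43.8% in WT, above all other members shown, which lie at 15.9% or less.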

How the data were processed

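RNA was counted per gene symbol in 4 epiblast libraries, 17 single 2-cell samples and 33 single oocytes; the other 155 of 209 samples hold other assays and were not analysed here. The authors deposited raw counts, not normalized: 1 table per epiblast group, a total table for oocytes and 2-cell samples, and the same split into maternal and paternal counts. Per the submitters' processing notes the build was mm9 and the tools, named without a role, include STAR 2.6.0a, featureCounts 2.0.1, HTSeq 0.10.0, Trim Galore 0.6.6 and cutadapt 1.15; strand settings are not given in the sources used here. In the oocyte columns the maternal table equals the total and the paternal table is 0, so oocytes have no allele values.

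The members and gene lists were chosen with earlier results of these data known. The 92 ERCC rows stayed out of the totals, 4 rows sharing a name were left out, and no library copied another. CPM is a count over the library total times 1000000. Epiblast counts were tested over all genes in R 4.3.3 by edgeR's two-sided quasi-likelihood test (4.0.16), after filterByExpr and TMM scaling, with Benjamini-Hochberg adjustment, checked on simulated counts; DESeq2 1.42.0, another scaling, no filter, a replicate block and leaving out each library were alternatives. The SE beside an edgeR log2 fold change was not fitted. It was taken as the absolute log2 fold change over the square root of the test's F statistic. A group at 0 was set to 3 counts over the group. Pooled ratios carry exact conditional Poisson intervals and shares exact Clopper-Pearson intervals at 95% (SciPy), which cover counting error only. Promoters are from RefSeq GRCm38.p6 and were aligned with Biopython (match 1, mismatch -1, gap opening -2, extension -0.5). Members with 10 or more epiblast counts were given by library, up to 16 Prl, 10 Psg and 6 Ceacam by mean CPM, with the 8 highest by pooled CPM in oocytes and 2-cell samples and up to 6 genes per list by mean CPM; others named are said to be chosen after their values were seen or listed by name alone.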

Additional observations from a re-analysis of the deposited data

Results flagged for a closer look

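In 2-cell samples, 28 sets of values (14 genes or family sums in KO and WT) were screened for a sample far from its group, and chance flags about 5% of such sets. Ceacam20 was at 258 CPM in WT 2-cell replicate 1, where the next highest WT sample was at 150.5 CPM. Prl8a2 was at 3.03 CPM in KO 2-cell replicate 7, where the next lowest KO sample was at 44.4 CPM. The Prl sum was at 8.54 CPM in the same sample, where the next lowest was at 47.4 CPM, and Prl8a2 makes up most of that sum. Psg29 was at 0.165 CPM, a single count, in WT 2-cell replicate 4 and at 0 in the other 7 WT samples.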

How the results depend on the processing

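The number of epiblast genes called in edgeR, 1389 higher and 2717 lower, ran from 612 to 2880 higher and from 118 to 5476 lower as each library was left out; where an arm then holds 1 library it is assumed to vary like the other group. Without the filter 631 were lower. Over the 8 lists 16 genes were called higher and 16 lower, 8 to 31 and 3 to 35 as each library was left out, and 9 and 7 without the filter. Same-numbered replicates shared only a number (correlation of deviations -0.00257), and a fit with a replicate block called 893 genes higher and 361 lower and 5 list genes lower. Of 256 list-gene values under alternatives, 177 kept their call, 79 lost it and none turned.

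The family log2 ratios of IVC over E6.5 were 11.61 for Prl and 4.38 for Ceacam members. As each library was left out, Prl ran from 10.61 to 15.22 (without E6.5 replicate 2), Psg from 9.89 (without E6.5 replicate 2) to 13.79 and Ceacam from 2.68 to 5.16. Without its member with the most counts Psg was at 10.46 and Ceacam turned to -1.59. The single member past 2-fold lower, Ceacam18, was not counted (0) without either IVC library or E6.5 replicate 2, nor with a minimum of 30 counts.

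In pooled libraries, Prl members had a KO over WT log2 ratio of 1.07 in 2-cell samples (0.84 without the library with the most counts) and 0.94 in oocytes (1.29 as a mean of libraries, 0.83 without that library, 0.70 in spike-in libraries). WT 2-cell over WT oocyte was -0.28 (-0.14, -0.01 and 0.75), so it turned in spike-in libraries. For Psg members these were 0.27 (0.20 without the top library), 0.42 (0.48, 0.29 and -0.07) and 0.58 (0.50, 0.31 and 0.79). For Ceacam members they were -0.21 (-0.31 as a mean, -0.27 without the top library), -0.32 (-0.42, -0.26 and -0.25) and -0.16 (-0.26, -0.10 and -0.38). The cause was not tested for any of these. Depth limits the IVC values more, with 3 counts at 0.289 and 0.293 CPM in IVC, against 0.254 and 0.125 CPM in E6.5.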
